A study of Mus musculus with 10 samples.

Results

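TGF-β and BMP ligands and their antagonists were followed here as 10 genes, taken by symbol from the 24452 named genes of the count table: the BMP ligands *Bmp2*, *Bmp4*, *Bmp6* and *Bmp7*, the TGF-β ligands *Tgfb1*, *Tgfb2* and *Tgfb3*, the activin subunit gene *Inhba*, and the secreted antagonists *Fst* and *Grem1*. All 10 had enough counts to be tested. RNA-Seq libraries had been made from whole skin of the back that held no tumor, 1 library per mouse, in 5 WT and 5 Zfp36 ΔARE mice on the C57BL/6 background. Zfp36 ΔARE mice are knock-in animals whose endogenous *Zfp36* gene lacks an instability motif in its 3′-UTR, in every tissue, so that more of the encoded protein, tristetraprolin (TTP), is made; the WT controls were littermates. Both groups received 1 dose of 400 nmol DMBA, a mutagen, on the back at 7 weeks of age and then 10 nmol TPA, a tumor-promoting phorbol ester, 2 times a week for 20 weeks, and untreated skin was not analysed here. The comparison asks how this change of the *Zfp36* gene goes with the transcripts of these signals in carcinogen-treated skin. The study reports papillomas in all control mice and a lower and later tumor burden in Zfp36 ΔARE mice. Tumor burden of the mice thus went with genotype, and its part was not tested here. The libraries measure RNA of whole skin, and not TTP protein or its level in single cell types.

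TGF-β and BMP ligands are secreted dimers that bind pairs of serine/threonine kinase receptors, and the receptors phosphorylate SMAD proteins that enter the nucleus. TGF-β ligands and activins work mainly through one set of SMADs and BMPs through another; TGF-β is stored in a latent form in the matrix, and antagonists such as gremlin, noggin and follistatin catch BMPs or activins before they reach a receptor. In skin, TGF-β is known for holding back keratinocyte growth and for driving matrix production by fibroblasts, and BMPs for setting the rest and growth of hair follicles and for the differentiation of the hair shaft.

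TTP binds mRNAs through AUUUA motifs in AU-rich elements and shortens their lives, so the 3′-UTRs of the members were read first. The sequences below are stretches of 30 bases from the 3′-UTRs of the 5 called members that hold ATTTA (written as DNA, 5′ to 3′ on the strand of the gene, ATTTA in capitals) and of *Inhba*, which holds the most. Each is a stretch with as many ATTTA as any other of that length in its 3′-UTR, except that the stretch of *Inhba* was chosen to hold the longer motif TTATTTATT, in the GENCODE M21 transcripts on GRCm38, and lies at chr2:133561933-133561962 (plus strand) for *Bmp2*, chr14:46383615-46383644 (minus) for *Bmp4*, chr13:38499784-38499813 (plus) for *Bmp6*, chr7:25705002-25705031 (plus) for *Tgfb1*, chr2:113746378-113746407 (minus) for *Grem1* and chr13:16029042-16029071 (plus) for *Inhba*.
Bmp2: cttaaagATTTAaaatgtATTTAgttgtac
Bmp4: tcaccttgaccttATTTAtgactttacgtg
Bmp6: tgccgtagccgtcATTTAagccacagaaca
Tgfb1: cgcccggggctgtATTTAaggacacctgca
Grem1: tATTTAatatcacctacattgtgtATTTAa
Inhba: tcaacttatATTTAttATTTAttggaatca

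By its raw count the motif did not divide the called members by direction. Among the called members that were higher in Zfp36 ΔARE skin, the 3′-UTR of *Bmp2* (1170 bases) held 8 ATTTA, that of *Bmp6* (1234 bases) held 5 and that of *Bmp4* (339 bases) held 2. Among those that were lower, *Grem1* (3436 bases) held 7, *Tgfb1* (135 bases) held 1 and *Tgfb3* (1035 bases) held 0. *Inhba*, which did not pass, held 21 in 4492 bases, *Tgfb2* and *Bmp7* held 4 each and *Fst*, with 81 bases, held 0. Long 3′-UTRs hold more of these letters, so each count was set against 3′-UTRs of 80% to 125% of its length. Of these, 1.86% held at least as many ATTTA as *Bmp2*, 14.7% as *Bmp4* and 16.3% as *Bmp6*. For the lower members the shares were 17.7% for *Tgfb1*, 44.2% for *Grem1* and 100% for *Tgfb3*, which holds 0. By this share the higher members lay below the lower ones, though *Bmp6* and *Tgfb1* were close. Among members that did not pass, the share was 2.45% for *Inhba*, 50.8% for *Bmp7* and 62.9% for *Tgfb2*. These shares were not tested against direction. The longer motif TTATTTATT, which contains ATTTA and was also searched on the strand of the gene only, occurred 3 times in *Inhba*, 1 time each in *Tgfb2* and *Bmp7*, and in none of the called members. Over all 21022 genes with an annotated 3′-UTR, 62.9% held ATTTA and 7.19% held TTATTTATT. These are counts of letters, and binding of TTP to them was not measured here. They come from 1 transcript per gene, and other transcripts, as of *Fst*, were not searched. The gene lengths of the count table were 1529 bases for *Inhba* and 1639 for *Grem1*, shorter than the 3′-UTRs read here. Part of these 2 3′-UTRs thus lay outside the bases that were counted.

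The libraries held 19595024 to 36419553 counts each, and the lowest count of any member in any library was 29. *Zfp36*, the targeted gene, rose 2.52-fold in Zfp36 ΔARE skin, from 2152 ± 277 to 5427 ± 766 normalized counts (SD, n = 5 mice each; edgeR adjusted p = 0.00195), where a normalized count is a count scaled by edgeR's TMM factors to the mean effective library size. The groups also differed in ways that touch the results below. A hair shaft score, the mean log2(CPM + 1) of 11 hair keratin and related genes, was 5.52, 7.93, 2.80, 8.35 and 8.27 in WT replicates 1 to 5 and 9.40, 9.66, 10.28, 9.30 and 8.98 in Zfp36 ΔARE replicates 1 to 5, so that WT replicates 1 and 3 stood apart below all others and the groups did not overlap. *Xist* had 14829 to 28087 counts in the 5 WT libraries and Zfp36 ΔARE replicate 1 and 4 to 15 in the other 4, which in turn held 3349 to 4262 counts of Y-linked genes; these marks of sex cannot be fully told apart from genotype. For 9 of the 10 members, Zfp36 ΔARE replicate 1 lay on the same side of the WT mean as the mean of its group, the exception being *Fst*.

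Of the 10 members, 6 passed an adjusted p of 0.05 (quasi-likelihood test of edgeR, Benjamini-Hochberg adjustment over 15543 genes): *Bmp2*, *Bmp4* and *Bmp6* rose and *Tgfb1*, *Tgfb3* and *Grem1* fell in Zfp36 ΔARE skin. Changes were common in these libraries: 34.3% of all tested genes passed, 15.3% higher and 19.1% lower. *Bmp2* and *Grem1* also changed more than 2-fold, a condition that 8.31% of all tested genes met, 1.67% higher and 6.64% lower; only *Grem1* met it when any one of WT replicates 1 and 3 and Zfp36 ΔARE replicates 1, 2 and 3 was left out, and 0 members without both WT libraries. In *Bmp4*, *Bmp6* and *Tgfb3* the values of the groups did not overlap, as was so for 23.1% of all tested genes. Whole skin holds many cell types, and fewer cells of a type and less RNA per cell cannot be told apart in these libraries.

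**Figure D1:**
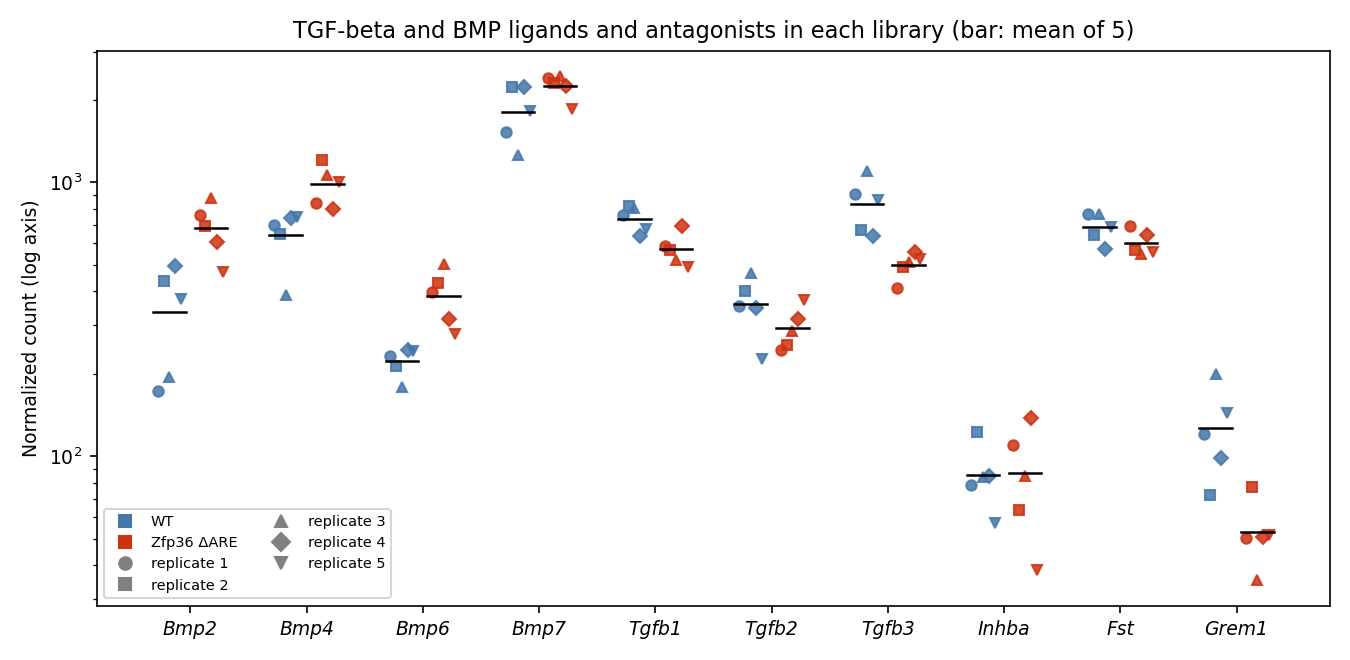
Normalized counts (log axis) of the 10 members in each library, WT in blue and Zfp36 ΔARE in red, with a symbol per replicate number and a bar at the mean of 5 mice. *Bmp4* and *Bmp6* sit higher and *Tgfb3* sits lower in every Zfp36 ΔARE library than in any WT library, while the groups overlap in the other 7 genes.

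Of the 4 BMP ligands among the members, 3 were higher in Zfp36 ΔARE skin. This does not hold for BMP ligands in general. Outside the members, *Bmp5* fell (log2 fold change -2.14, edgeR adjusted p = 0.00852). *Bmp3* (-0.28, edgeR adjusted p = 0.161) and *Bmp8a* (1.15, edgeR adjusted p = 0.0611) did not pass. *Bmp2* (Entrez 12156, chr2:133552159-133562885), a ligand made by hair matrix cells among others, had 172, 437, 195, 496 and 374 normalized counts in WT replicates 1 to 5 and 758, 694, 875, 605 and 471 in Zfp36 ΔARE replicates 1 to 5. WT replicates 1 and 3 were the lowest, and the groups overlapped only through Zfp36 ΔARE replicate 5, which was below WT replicate 4. The means were 335 ± 145 and 681 ± 153 (SD, n = 5 each). *Bmp2* thus rose 2.03-fold (log2 fold change 1.02, standard error 0.30, edgeR adjusted p = 0.0253).

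*Bmp4* (Entrez 12159, chr14:46383520-46390669), the main BMP of the dermal papilla, had 701, 647, 387, 739 and 750 normalized counts in WT replicates 1 to 5 and 838, 1203, 1065, 802 and 1003 in Zfp36 ΔARE replicates 1 to 5. WT replicate 3 was far below the other WT libraries, and no WT value reached the lowest Zfp36 ΔARE value. The rise was 1.52-fold, by 0.61 on the log2 scale (standard error 0.18, edgeR adjusted p = 0.0265).

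*Bmp6* (Entrez 12161, chr13:38345107-38500302), a ligand found in suprabasal epidermis and the hair follicle, had 232, 214, 179, 244 and 241 normalized counts in WT replicates 1 to 5 and 399, 430, 503, 318 and 278 in Zfp36 ΔARE replicates 1 to 5. The WT values lay close together and every Zfp36 ΔARE value lay above them. *Bmp6* rose 1.74-fold (log2 fold change 0.80, standard error 0.16, edgeR adjusted p = 0.0083).

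*Bmp7* (Entrez 12162, chr2:172868012-172940321), a ligand active in skin and follicle development, had 1526, 2236, 1254, 2222 and 1815 normalized counts in WT replicates 1 to 5 and 2399, 2307, 2447, 2247 and 1858 in Zfp36 ΔARE replicates 1 to 5. WT replicates 1 and 3 were the lowest of all 10 values, and WT replicates 2 and 4 lay within the Zfp36 ΔARE range. The log2 fold change of 0.31 (standard error 0.15) did not pass (edgeR adjusted p = 0.132).

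Calls differed in how far they rested on single libraries. *Bmp6* passed with each library left out in turn (adjusted p between 0.00904 and 0.0248). Without Zfp36 ΔARE replicate 2 or without Zfp36 ΔARE replicate 3, 3 of the 10 members passed, beside 21.3% and 22.4% of all tested genes, and with the replicate number as a block 2 passed (*Tgfb3* and *Bmp6*), beside 17.6%. *Bmp2* had an adjusted p of 0.0525 without Zfp36 ΔARE replicate 2 and 0.0607 without Zfp36 ΔARE replicate 3, and *Bmp4* 0.0653 and 0.0613. Without WT replicates 1 and 3 together, 5 members passed, beside 15.9% of all tested genes. There *Bmp2* rose less, by 0.64 on the log2 scale (standard error 0.19, adjusted p = 0.0463), and so did *Bmp4* at 0.46 (adjusted p = 0.049), whereas *Bmp6* was at 0.73 (adjusted p = 0.03).

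The TGF-β ligands were lower in Zfp36 ΔARE skin in 2 of 3 genes. *Tgfb3* (Entrez 21809, chr12:86056745-86079041), the isoform best known from palate closure and scar-poor repair, had 909, 670, 1104, 638 and 863 normalized counts in WT replicates 1 to 5 and 410, 491, 511, 555 and 524 in Zfp36 ΔARE replicates 1 to 5. All Zfp36 ΔARE values lay below the lowest WT value, and WT replicates 1 and 3, the libraries with the least hair shaft RNA, were the highest. *Tgfb3* fell 1.68-fold (log2 fold change -0.75, standard error 0.15, edgeR adjusted p = 0.00814), and it passed with each library left out (adjusted p between 0.00598 and 0.0241).

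*Tgfb1* (Entrez 21803, chr7:25687002-25705077), the isoform most tied to inflammation and immune control, had 759, 817, 803, 636 and 675 normalized counts in WT replicates 1 to 5 and 588, 568, 518, 696 and 492 in Zfp36 ΔARE replicates 1 to 5. Zfp36 ΔARE replicate 4 lay above 2 of the WT libraries, so the groups overlapped. The fall was 1.29-fold (log2 fold change -0.37, standard error 0.11, edgeR adjusted p = 0.0257). It missed the threshold when any one of 5 libraries was left out, with adjusted p-values of 0.0561, 0.0524 and 0.0506 without WT replicates 1, 2 and 3, and 0.0557 and 0.057 without Zfp36 ΔARE replicates 2 and 3.

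*Tgfb2* (Entrez 21808, chr1:186622792-186705989), an isoform made by the dermal papilla as the follicle enters growth, had 354, 402, 465, 348 and 227 normalized counts in WT replicates 1 to 5 and 244, 254, 286, 316 and 371 in Zfp36 ΔARE replicates 1 to 5. The lowest of all 10 values was WT replicate 5, and the groups differed by less than the mice within them (log2 fold change -0.29, standard error 0.18, edgeR adjusted p = 0.23).

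*Inhba* (Entrez 16323, chr13:16011851-16031621) encodes the βA subunit of activin A, which wounded skin is known to make. It had 78.3, 123, 84.2, 84.4 and 56.8 normalized counts in WT replicates 1 to 5 and 109, 63.4, 84.6, 138 and 38.2 in Zfp36 ΔARE replicates 1 to 5. Both the lowest and the highest value were in Zfp36 ΔARE libraries, and the means of 85.3 ± 23.8 and 86.6 ± 38.7 (SD, n = 5 each) were nearly the same, with a log2 fold change of 0.020 that has a standard error of 0.32 (edgeR adjusted p = 0.968). Its difference between the groups was far smaller than the spread between mice within either.

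The antagonists differed from each other. *Grem1* (Entrez 23892, chr2:113746164-113758646) encodes gremlin 1, which binds BMP ligands outside the cell. It had 121, 71.9, 199, 98.0 and 143 normalized counts in WT replicates 1 to 5 and 50.2, 77.0, 35.1, 50.7 and 51.4 in Zfp36 ΔARE replicates 1 to 5. The groups overlapped only between Zfp36 ΔARE replicate 2 and WT replicate 2. *Grem1* fell 2.37-fold, the largest change of any member (log2 fold change -1.25, standard error 0.29, edgeR adjusted p = 0.0119), and it passed with each library left out (adjusted p between 0.0103 and 0.0293). WT replicate 3 was the highest, and without WT replicates 1 and 3 the log2 fold change was -0.97 (adjusted p = 0.0468).

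*Fst* (Entrez 14313, chr13:114452290-114458951) encodes follistatin, which binds activins tightly and some BMPs less so. Its 764, 641, 769, 572 and 685 normalized counts in WT replicates 1 to 5 stood against 695, 566, 549, 645 and 557 in Zfp36 ΔARE replicates 1 to 5. The groups overlapped over most of their range (log2 fold change -0.19, standard error 0.10, edgeR adjusted p = 0.169).

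**Figure D2:**
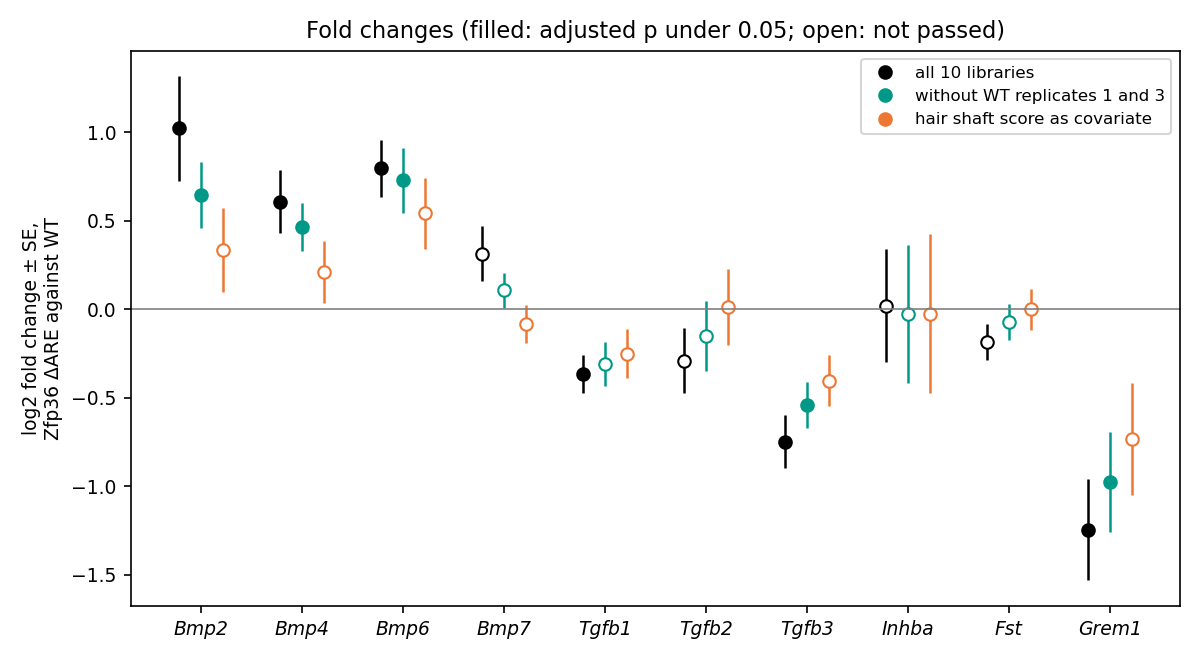
Log2 fold changes ± standard error of the 10 members, Zfp36 ΔARE against WT, over all 10 libraries (black), without WT replicates 1 and 3 (green) and with the hair shaft score as a covariate (orange), filled where the edgeR adjusted p was under 0.05. Over all libraries 6 points are filled (*Bmp2*, *Bmp4*, *Bmp6*, *Tgfb1*, *Tgfb3* and *Grem1*), without the 2 WT libraries 5, and with the covariate 0, and the points of these 6 members move towards 0 along that order.

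Levels between genes were compared per length, as RPKM from the TMM-scaled counts and the gene lengths of the count table. In WT skin *Bmp7* was the highest at a mean of 18.5 RPKM, followed by *Tgfb1* at 12.7, *Bmp4* at 11.7, *Tgfb3* at 9.26 and *Fst* at 8.99. The other 5 lay below 4 RPKM in the mean, with *Bmp2* at 3.52, *Grem1* at 2.89, *Tgfb2* at 2.85, *Bmp6* at 2.78 and *Inhba* at 2.09. Between neighbours in this WT order the ranges over mice overlapped except between *Fst* (7.49 to 10.1 RPKM) and *Bmp2* (1.81 to 5.21 RPKM).

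In Zfp36 ΔARE skin the order was *Bmp7* (23.0 RPKM), *Bmp4* (17.9), *Tgfb1* (9.86), *Fst* (7.89), *Bmp2* (7.15), *Tgfb3* (5.51), *Bmp6* (4.82), *Tgfb2* (2.33), *Inhba* (2.12) and *Grem1* (1.21). Ranges of neighbours did not overlap between *Bmp4* (14.6 to 21.9 RPKM) and *Tgfb1* (8.48 to 12.0 RPKM), nor between *Bmp6* (3.48 to 6.29 RPKM) and *Tgfb2* (1.93 to 2.94 RPKM), and they overlapped between all other neighbours.

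Summed per length, the 4 BMP ligands came to 33.1, 41.9, 24.1, 44.4 and 39.1 RPKM in WT replicates 1 to 5 and to 52.7, 58.1, 59.9, 47.9 and 45.7 in Zfp36 ΔARE replicates 1 to 5. The 3 TGF-β ligands came to 25.9, 24.7, 29.8, 20.8 and 23.0 RPKM in WT and to 16.6, 17.2, 16.9, 20.6 and 17.2 in Zfp36 ΔARE replicates, in the same order. Neither sum overlapped between the groups, and the smallest distances were between WT replicate 4 and Zfp36 ΔARE replicate 5 for the BMP sum and between replicates 4 of both groups for the TGF-β sum. The ratio of the BMP sum to the TGF-β sum averaged 1.52 ± 0.50 for the WT libraries and 3.01 ± 0.51 for the Zfp36 ΔARE libraries (SD, n = 5 each), and the WT mean was 1.85 over replicates 2, 4 and 5. The ratio of the BMP sum to *Grem1* was 14.9 ± 7.8 in WT, ranging from 5.31 to 25.5, and 46.7 ± 16.2 in Zfp36 ΔARE skin, where every value lay above the WT range and the highest was 74.5. The ratio of *Fst* to *Inhba* was 4.59 ± 1.42 and 4.38 ± 2.06. Over WT replicates 2, 4 and 5 the mean was 41.8 RPKM for the BMP sum, beside 36.5 over all WT libraries. For the TGF-β sum these means were 22.8 and 24.8 RPKM, and for the ratio to *Grem1* 19.1 and 14.9. Single genes without overlap made up 23.1% of all tested genes. The sums and the ratio to *Grem1* join members already called in these directions, so their separation is no further result. These sums and ratios are descriptions of transcript levels and were not tested.

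Within the BMP sum, *Bmp7* held 50.6% in WT and 43.6% in Zfp36 ΔARE skin, *Bmp4* 32.2% and 33.9%, *Bmp2* 9.34% and 13.4%, and *Bmp6* 7.81% and 9.03% (means of 5 mice). Within the TGF-β sum, *Tgfb1* held 51.5% and 55.6%, *Tgfb3* 37.1% and 31.2%, and *Tgfb2* 11.5% and 13.2%. *Bmp7* and *Tgfb1* thus remained the most abundant transcript of their kind in both groups.

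**Figure D3:**
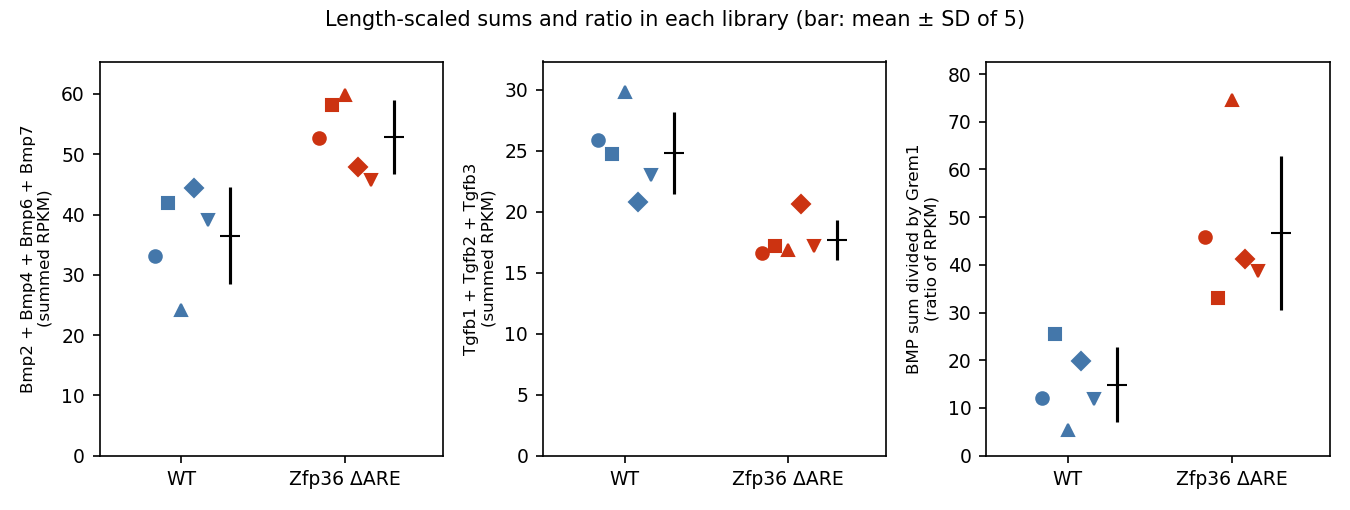
Length-scaled sum of the 4 BMP ligands (left, RPKM), of the 3 TGF-β ligands (middle, RPKM) and the ratio of the BMP sum to *Grem1* (right) in each library, with the mean ± SD of 5 mice beside the points and all axes starting at 0. The Zfp36 ΔARE libraries lie above the WT libraries in the left and right panels and below them in the middle panel.

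The members also moved with markers of the cell types that whole skin holds. All 11 hair shaft markers had a positive log2 fold change, with a median of 2.28, and 2 passed; the score had an SD of 2.41 among WT and 0.488 among Zfp36 ΔARE libraries. Their summed level was 2930 to 114000 normalized counts in WT and 168000 to 477000 in Zfp36 ΔARE libraries. Among the WT libraries, replicates 3 and 1, with the lowest hair shaft scores, had the 2 lowest values of *Bmp2* and *Bmp7* and the 2 highest of *Tgfb3*. With the hair shaft score as a covariate in edgeR, 0 of the 10 members passed, 3 had an unadjusted p under 0.05, and 0.251% of all tested genes passed. The log2 fold changes in that fit were 0.33 for *Bmp2* (adjusted p = 0.55), 0.21 for *Bmp4* (0.624), 0.54 for *Bmp6* (0.244), -0.25 for *Tgfb1* (0.437), -0.40 for *Tgfb3* (0.226) and -0.73 for *Grem1* (0.309). Since the score itself did not overlap between the groups, hair shaft content and genotype cannot be fully told apart in these libraries.

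**Figure D4:**
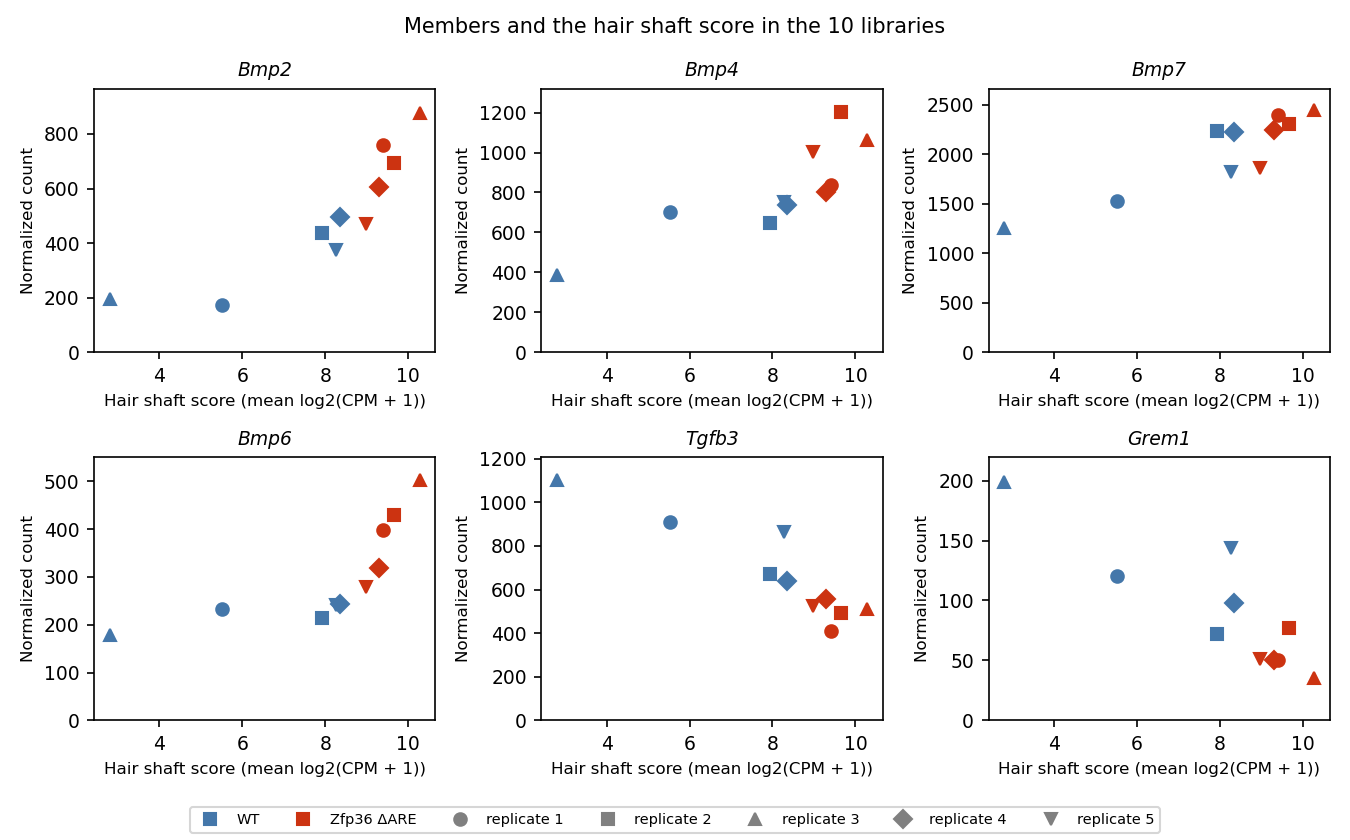
Normalized counts of 6 members against the hair shaft score (mean log2(CPM + 1) of 11 genes) in each of the 10 libraries, WT in blue and Zfp36 ΔARE in red, with a symbol per replicate number. WT replicate 3, at a score of 2.80, has the lowest *Bmp4*, *Bmp6* and *Bmp7* and the highest *Tgfb3* and *Grem1*, and Zfp36 ΔARE replicate 3, at 10.28, has the highest *Bmp2*, *Bmp6* and *Bmp7* and the lowest *Grem1*.

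Among the other marker lists, inner root sheath markers had positive fold changes in 8 of 8 genes with 0 passing the test (8 listed; summed level 37900 to 699000 in WT and 724000 to 1290000 in Zfp36 ΔARE libraries), and dermal papilla markers rose in 2 of the 5 tested genes. Fibroblast markers fell in 6 of 9 genes (summed level 167000 to 353000 in WT and 95100 to 267000), skeletal muscle markers in 9 of 11 (248000 to 1230000 and 143000 to 314000), and adipocyte markers in 6 of 8 (47100 to 97300 and 32300 to 42800). Endothelial markers fell in 9 of 10 genes (6290 to 13800 and 3940 to 5050), macrophage markers in 10 of 11 (19300 to 37100 and 11800 to 16700) and mast cell markers in 4 of 4 (4640 to 13300 and 1650 to 2650). Basal keratinocyte markers fell in 2 of 6 genes and bulge markers of the hair follicle in 2 of 6 (*Cd34* and *Nfatc1*). Of the suprabasal keratinocyte markers 0 of 4 passed in either direction, and of the T cell markers 0 of 6. No marker was at 0 counts in all libraries. When the skeletal muscle score was the covariate in edgeR, 0 members passed (2 at an unadjusted p under 0.05), beside 0.0129% of all tested genes, and with the fibroblast score 0 members passed (1 at an unadjusted p under 0.05), beside 0%. The part of each cell type in the change of any member was not tested beyond these fits.

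The other genes of the pathway were counted by role, and each count can be read against the 15.3% of all tested genes that rose and the 19.1% that fell. Most other ligands of the superfamily had few counts or did not pass. Of 25 listed genes, 14 had too few counts to be tested, and of the 11 tested 0 rose and 2 fell (4 passed without WT replicate 3 or without WT replicate 5), with a median log2 fold change of -0.28 beside 0.0076 over all tested genes. *Gdf3*, a ligand known from early embryos and from fat, fell from 55.4 ± 23.4 to 5.48 ± 3.09 normalized counts (log2 fold change -3.24, standard error 0.41, edgeR adjusted p = 0.00369). *Bmp5* fell from 52.3 ± 34.5 to 11.7 ± 3.33 (log2 fold change -2.14, adjusted p = 0.00852). Both were low in every Zfp36 ΔARE library, *Gdf3* at most at 10.5 and *Bmp5* at most at 15.8 normalized counts. The most abundant others did not pass: *Inhbb*, the activin βB subunit, had 1213 ± 258 and 1143 ± 406, *Mstn*, the muscle growth inhibitor myostatin, 1237 ± 615 and 538 ± 314 (adjusted p = 0.061), *Bmp8a* 248 ± 147 and 552 ± 140 (adjusted p = 0.0611), and *Gdf10* 251 ± 93.0 and 306 ± 28.9 (SD, n = 5 each).

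Of the 16 tested genes in the list of other antagonists and pseudoreceptors, 3 rose and 7 fell, and the median log2 fold change was -0.46. *Bambi*, a kinase-less pseudoreceptor that dampens TGF-β and is itself a BMP-responsive gene, had 656, 1212, 155, 1441 and 1430 normalized counts in WT replicates 1 to 5 and 2910, 3264, 3580, 2395 and 2537 in Zfp36 ΔARE replicates 1 to 5 (log2 fold change 1.58, standard error 0.47, edgeR adjusted p = 0.0279). All Zfp36 ΔARE values were above all WT values, and WT replicates 3 and 1 were the lowest. *Cer1*, cerberus, rose from 13.7 ± 11.5 to 63.7 ± 15.0 (adjusted p = 0.0148), and *Wfikkn1*, named outside the rule, by 0.62 on the log2 scale.

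Among the antagonists that fell, *Chrdl1*, a chordin-like BMP antagonist, went from 580 ± 217 to 221 ± 48.1 normalized counts (log2 fold change -1.39, standard error 0.27, edgeR adjusted p = 0.00724). *Nbl1*, a secreted BMP antagonist, fell with a log2 fold change of -0.62 (adjusted p = 0.0093), *Fstl1*, a follistatin-like protein of mesenchymal cells, with -0.73 (adjusted p = 0.0083), and *Wfikkn2*, which binds myostatin, with -1.20 (adjusted p = 0.0319). Falls were also seen in *Chrd* (-0.91) and *Sostdc1* (-0.52), which, like some single genes in the lists that follow, were named after their values were seen. *Twsg1*, a BMP-binding partner of chordin, had 2721 and 2560 normalized counts (adjusted p = 0.358), and *Nog*, noggin, had only 17.5 ± 3.0 and 15.1 ± 6.4 (adjusted p = 0.64).

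Genes that store or release latent TGF-β fell in 5 of 14 (3 without Zfp36 ΔARE replicate 2) and rose in 0, with a median log2 fold change of -0.33. *Fbn1*, fibrillin 1, which anchors latent complexes in the matrix, fell from 12320 ± 2770 to 5449 ± 653 normalized counts (log2 fold change -1.18, standard error 0.15, edgeR adjusted p = 0.00369). *Nrros*, which holds latent TGF-β1 on the surface of myeloid cells, fell with a log2 fold change of -1.07 (adjusted p = 0.00538), and *Tll1*, a tolloid-like protease that cleaves chordin, with -1.22 (adjusted p = 0.0147). The remaining 2 were *Lrrc32* (-0.72) and *Ltbp2* (-0.45). *Thbs1*, an activator of latent TGF-β, varied from 2886 to 14170 within WT and did not pass (adjusted p = 0.638), nor did the latent TGF-β binding protein genes *Ltbp4* (adjusted p = 0.592) and *Ltbp3* (adjusted p = 0.291).

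Among the 15 receptors and co-receptors, 0 rose and 5 fell, with a median log2 fold change of -0.065. *Tgfbr2*, the type II receptor that every TGF-β ligand needs, had 9380, 7409, 7543, 6328 and 5257 normalized counts in WT replicates 1 to 5 and 3430, 2627, 2699, 3343 and 3315 in Zfp36 ΔARE replicates 1 to 5. The groups were far apart, with a 2.33-fold fall (log2 fold change -1.22, standard error 0.15, edgeR adjusted p = 0.00369). *Acvr1c*, which is prominent in fat cells, fell with a log2 fold change of -1.19 (adjusted p = 0.0206). *Eng* (-0.80) and *Acvrl1* (-0.78), both known from endothelial cells, and *Tgfbr3* (-0.66) were the other falls. The abundant BMP and activin receptor genes *Bmpr1a* (4354 ± 919 and 5303 ± 578), *Bmpr2* (2939 and 3081) and *Acvr1b* (2511 and 2770) did not pass (adjusted p = 0.132, 0.536 and 0.332).

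**Figure D5:**
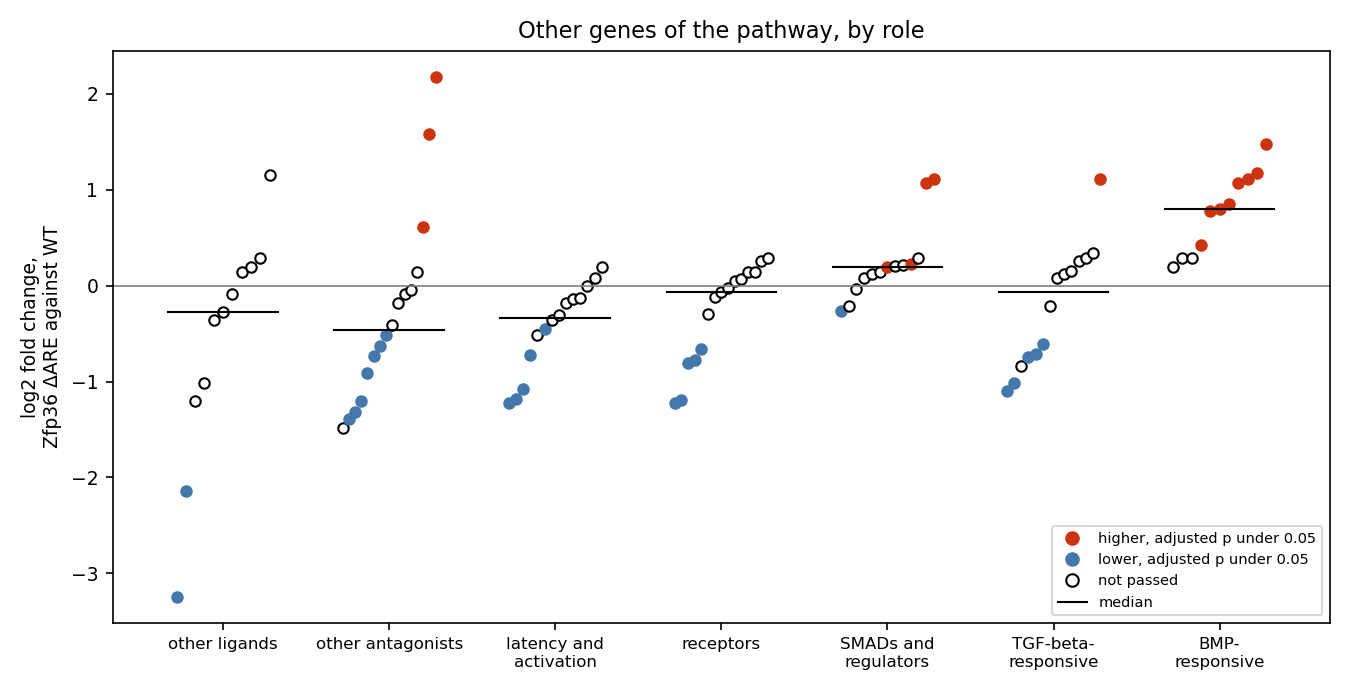
Log2 fold changes, Zfp36 ΔARE against WT, of the tested genes in 7 lists of the pathway by role, each circle 1 gene in order of its value, filled red (higher) or blue (lower) where the edgeR adjusted p was under 0.05, with the median of the list as a line. The BMP-responsive list has 8 red circles and 0 blue ones and a median of 0.80, and the receptor and latency lists have 5 blue circles each and 0 red ones.

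Of 13 SMADs and their regulators, 4 rose and 1 fell, with a median log2 fold change of 0.20; the count that passed was 2 without WT replicate 1 or without Zfp36 ΔARE replicate 2, 3 without Zfp36 ΔARE replicate 1 or without Zfp36 ΔARE replicate 3, 1 with the replicate block and, in edgeR, 0 with each of the 3 marker scores (1, 2 and 0 at an unadjusted p under 0.05 with the hair shaft, muscle and fibroblast score). The inhibitory SMADs moved most: *Smad7*, which responds to and dampens TGF-β and BMP signals, rose from 490 ± 182 to 1059 ± 187 normalized counts (log2 fold change 1.11, standard error 0.25, edgeR adjusted p = 0.0107), and *Smad6*, the BMP-induced counterpart, from 257 ± 96.5 to 540 ± 116 (log2 fold change 1.07, adjusted p = 0.0155). *Smad5*, a signal carrier of BMPs, rose slightly (log2 fold change 0.23, adjusted p = 0.0286), as did the ubiquitin ligase gene *Smurf2* (0.20, adjusted p = 0.0363), and *Smad3*, a signal carrier of TGF-β and activin, fell by 0.27 on the log2 scale (adjusted p = 0.0221). *Smad2* (adjusted p = 0.107) and *Ski* (adjusted p = 0.64) did not pass.

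Of 11 BMP-responsive genes, 8 rose and 0 fell, with a median log2 fold change of 0.80. The *Id* genes encode inhibitors of basic helix-loop-helix factors and are the classical direct targets of BMP signals. *Id2* had 1114, 1115, 1098, 1082 and 1235 normalized counts in WT replicates 1 to 5 and 1450, 1738, 1523, 1354 and 1527 in Zfp36 ΔARE replicates 1 to 5, with no overlap (log2 fold change 0.43, standard error 0.071, edgeR adjusted p = 0.00531). *Id3* rose from 1347 ± 349 to 2308 ± 376 (log2 fold change 0.78, adjusted p = 0.0113) and *Id1*, named outside the rule, by 0.80. WT replicate 3 was the lowest of the WT libraries in *Id1*, *Id3* and *Id4* but not in *Id2*.

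The homeobox genes of the list are also known from hair matrix and hair shaft. *Msx2* had 1195, 1502, 361, 1950 and 2164 normalized counts in WT replicates 1 to 5 and 3683, 4632, 4866, 3227 and 3612 in Zfp36 ΔARE replicates 1 to 5 (log2 fold change 1.48, standard error 0.38, edgeR adjusted p = 0.0164). *Dlx3* rose from 4730 ± 2066 to 10650 ± 1603 (log2 fold change 1.17, adjusted p = 0.0204), and *Msx1* by 0.86 (adjusted p = 0.0491). In both *Msx2* and *Dlx3*, WT replicates 3 and 1 were the lowest, as they were in the hair shaft score. *Smad6* and *Smad7* are counted in this list too, and *Id4*, *Smad9* and *Atoh8* did not pass. Without WT replicates 1 and 3, 7 of the 11 passed, all higher; with the hair shaft score as a covariate 0 passed in edgeR, with 5 at an unadjusted p under 0.05.

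Of 14 TGF-β-responsive genes, 1 rose and 5 fell, with a median log2 fold change of -0.064. The matrix gene *Fn1*, fibronectin, fell from 16530 ± 4457 to 8156 ± 865 normalized counts (log2 fold change -1.02, standard error 0.17, edgeR adjusted p = 0.00526). The matrix genes *Tgfbi* (-0.71, adjusted p = 0.0156) and *Postn*, periostin (-0.61, adjusted p = 0.0391), fell as well, as did *Col7a1* (-0.74). *Smad7* was the gene that rose, and *Cdkn1a*, the p21 cell cycle inhibitor, did not pass (adjusted p = 0.125). These named genes that fell encode matrix proteins, and the fibroblast markers fell in 6 of 9 genes in the same libraries. Without WT replicates 1 and 3, 2 of the 14 passed, 1 in each direction, beside 15.9% of all tested genes.

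The genes whose values followed a member most closely from mouse to mouse were sought by Pearson's r of log2(CPM + 1) over the 10 libraries after the mean of each genotype had been subtracted, among 13681 genes. The closest to *Bmp2* were *Osbp2* (r = 0.991) and *Usp38* (0.989), to *Bmp4* *Dynlt1a* (0.98) and *Slc39a10* (0.979), to *Bmp6* *Zfhx2* (0.935) and *Elmo2* (0.931), and to *Bmp7* *Tmem229b* (0.992) and *Utp14b* (0.987). For the TGF-β ligands they were *Itgb5* (0.965) and *Snx8* (0.924) for *Tgfb1*, *B3galnt1* (0.936) and *Larp6* (0.936) for *Tgfb2*, and *Oxa1l* (0.964) and *Frat2* (0.962) for *Tgfb3*. *Inhba* was closest to *Hrh1* (0.956) and *Capns1* (0.939), *Fst* to *Cyb561a3* (0.94) and *Rasal3* (0.93), and *Grem1* to *Acad10* (0.967) and *Ankrd24* (0.947). With 10 libraries and so many genes high values arise readily, and the values are given as a description. The libraries also differed in hair shaft content, with an SD of the score of 2.41 among WT and 0.488 among Zfp36 ΔARE libraries. Subtracting the mean of each genotype leaves this difference between mice in place.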

How the data were processed

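RNA of DMBA/TPA-treated skin was sequenced by the authors from 5 WT and 5 Zfp36 ΔARE mice. Reads whose mean quality was below 20 were dropped, STAR 2.5.2b aligned what was left to mm10, and the authors counted fragments per gene with featureCounts from Subread 1.5.0-p1; the deposited values are raw counts per gene with no normalization, and the deposited gene length, per the file headers, is in bases. Whether counting used strand, and how reads that match several genes were handled, is not given in the sources used here. The study tested the counts with DESeq2. Rows without a gene name numbered 2, held 7.38e-05% of the counts and were left out.

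TMM factors were computed with edgeR 4.0.16 (R 4.3.3), which also filtered genes with filterByExpr and was used to fit a robust quasi-likelihood model with genotype as the only term on the whole table, leaving 15543 genes; p-values were adjusted by Benjamini-Hochberg over all of them. The common biological coefficient of variation was 21.6%. Normalized counts are TMM-scaled counts at a mean effective library size of 26680948, RPKM divides these by the deposited length, and marker scores use log2(CPM + 1). Fits of genotype alone were also run on simulated counts in which each gene varied independently. That run held no shared differences in hair, muscle or sex between libraries and does not cover them. ATTTA and TTATTTATT were counted in the 3′-UTR after the stop codon of 1 principal transcript per gene in GENCODE M21 (GRCm38).

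Groups, replicate numbers and doses came from the labels; each library is 1 mouse, and the replicate numbers do not pair the mice. The members, lists and tests were chosen with earlier results of these data known. Named are the 10 members, *Zfp36*, in each pathway list the 4 genes with the most counts and up to 5 with the largest change among those past both thresholds (adjusted p under 0.05, fold over 2), and for each member the 2 genes most like it with at least 50 normalized counts in the mean; single genes that complete a small count were added after their values were seen. Some genes that this rule names are counted in their lists but not reported here by name. Alternatives were DESeq2 1.42.0, limma-voom (limma 3.58.1), scaling by the size factors of DESeq2 or by the upper quartile, a filter of 10 counts in each library or none, non-robust dispersions, the replicate number as a block (replicate block), leaving out each library or WT replicates 1 and 3, and 3 marker scores as covariates. For the lists, all of these but DESeq2, the omission of both WT libraries and the hair shaft covariate were added after the data were seen.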

Additional observations from a re-analysis of the deposited data

Results flagged for a closer look

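In each group of 5 mice, the gap of the highest or lowest mouse to its neighbour, divided by the range of the group, was set against 0.71 (Dixon's critical value) for the members and named pathway genes. Of 102 groups examined, 4 exceeded it, where chance gives about 1 in 20 groups, or 5.1 here. *Bmp4* in WT replicate 3 was at 387 normalized counts with the other WT libraries at 647 to 750 (gap over range 0.716). *Gdf10* in the same library was at 412, above 187 to 241 in the other WT libraries (0.76). *Cdkn1a* in Zfp36 ΔARE replicate 5 was at 6890, below 8120 to 8390 (0.819), and *Id2* in WT replicate 5 was at 1240, above 1080 to 1110 (0.787).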

How the results depend on the processing

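With 5 mice a group the number of called members ranged from 3 to 6 as single libraries were left out (3 without Zfp36 ΔARE replicate 2 or 3: *Tgfb3*, *Bmp6* and *Grem1*), where 21.3% and 22.4% of all tested genes passed, and the number with a fold over 2 from 1 to 2 (1 without WT replicate 1 or 3 or Zfp36 ΔARE replicate 1, 2 or 3). Over the 22 alternatives the log2 fold change ranged from 0.54 to 0.89 for *Bmp6*, from 0.19 to 1.21 for *Bmp2*, from 0.21 to 0.67 for *Bmp4*, from -0.45 to -0.25 for *Tgfb1*, from -0.83 to -0.29 for *Tgfb3* and from -1.42 to -0.54 for *Grem1*, so these 6 kept their direction. Without WT replicates 1 and 3, 5 members passed (not *Tgfb1*, adjusted p = 0.113) and 0 with a fold over 2, also at an unadjusted p; upper-quartile scaling left 1 with a fold over 2. With the hair shaft, skeletal muscle or fibroblast score as covariate 0 members passed, with 3, 2 and 1 at an unadjusted p under 0.05 in edgeR, and 0 with a fold over 2, also unadjusted; the same fits called 39, 2 and 0 of all tested genes, and *Zfp36* itself had an adjusted p of up to 0.141. The cause was not tested.

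The replicate numbers did not pair the mice, with correlations of same-numbered libraries between -0.19 and 0.083 and no WT library closest to its own number. With a replicate block 2 members passed (*Tgfb3* and *Bmp6*), 0 with a fold over 2 (2 at an unadjusted p), as did 17.6% of all tested genes, and the lists had 6 other antagonists, 1 SMAD or regulator and 4 BMP-responsive genes.

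Of the members that did not pass, *Inhba*, *Bmp7* and *Tgfb2* changed sign. *Inhba* was at -0.060 with limma-voom, -0.016 with upper-quartile scaling, -0.049 with the replicate block, -0.027 without WT replicates 1 and 3, -0.20 to 0.20 with single libraries left out, and -0.025, -0.34 and -0.32 with the hair shaft, muscle and fibroblast scores. *Bmp7* was at -0.082, -0.077 and -0.097 with those scores, and *Tgfb2* at 0.0115 with the hair shaft and 0.046 with the fibroblast score.

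List counts moved as follows. Other ligands that passed numbered 5 with DESeq2, 4 with limma-voom, 0 with at least 10 counts in every library (2 at an unadjusted p under 0.05), 1 with the hair shaft score and 0 with the muscle and fibroblast scores. Without WT replicates 1 and 3 there were 6 other antagonists, 3 latency genes, 2 SMADs or regulators and 2 TGF-β-responsive genes. With each of the 3 scores 0 genes passed in the antagonist, latency, receptor, SMAD, TGF-β-responsive and BMP-responsive lists, with 0 to 6 at an unadjusted p under 0.05. Leaving out single libraries gave 2 to 4 other ligands (4 without WT replicate 3 or 5), 7 to 11 antagonists, 3 to 6 latency genes (3 without Zfp36 ΔARE replicate 2), 4 to 6 receptors, 2 to 7 SMADs or regulators (2 or 3 without WT replicate 1 or Zfp36 ΔARE replicate 1, 2 or 3), 4 to 7 TGF-β-responsive and 6 to 8 BMP-responsive genes.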
